A study of Mus musculus with 6 samples.

Results

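The genes described here are 8 transporters that move bile acids, bile lipids and conjugated organic anions across the membranes of the hepatocyte, out of 25369 genes listed in at least 1 library. They were chosen by name: Slc10a1, Slco1b2, Abcb11, Abcb4, Abcc2, Abcg5, Abcg8 and Abcc3. All 8 were listed in all 6 libraries. Their levels were compared between livers given CWHM-12 and livers given DMSO, between periportal and pericentral hepatocytes, and between cholangiocytes and hepatocytes.

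Bile forms when hepatocytes take bile acids up from sinusoidal blood and pump them, with phospholipid and cholesterol, into the canaliculus between neighbouring cells. Slc10a1 (NTCP) takes up conjugated bile acids together with sodium, and Slco1b2 (OATP1B2) takes up bile acids and other organic anions without it. At the canalicular membrane Abcb11 (BSEP) exports bile acids, Abcb4 (MDR2) moves phosphatidylcholine to the outer leaflet, Abcc2 (MRP2) exports conjugated anions such as bilirubin glucuronide, and the Abcg5 and Abcg8 half-transporters pair to export sterols. Abcc3 (MRP3) exports conjugated anions at the basolateral membrane, back toward the blood. Cholangiocytes, the cells that line bile ducts, modify bile after it leaves the canaliculi.

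All mice were wild-type males that had a partly ligated inferior vena cava (pIVCL), which congests the liver, at an age of 8 to 10 weeks. From 2 weeks after surgery, osmotic pumps delivered CWHM-12, an inhibitor of integrins that hold the αV subunit, at 100 mg/kg/day (3 libraries) or its vehicle DMSO (3 libraries) for 4 weeks. Both groups were operated, so no value here comes from an unoperated liver. Batch 2024.6 held CWHM-12 1, DMSO 1 and DMSO 2, and batch 2024.12 held CWHM-12 2, CWHM-12 3 and DMSO 3. The labels give no mouse identifier, so p-values measure the spread between libraries, which may be technical.

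Libraries held between 31294555 and 48100436 molecules (UMIs) in the CWHM-12 group and between 28220477 and 44557538 in the DMSO group, and 37982 cells were kept. Hepatocytes numbered 2735, 265 and 1904 in CWHM-12 1 to 3 and 1447, 469 and 1728 in DMSO 1 to 3, or 8548 of the kept cells, from suspensions that the labels put at about 10% hepatocytes. Cholangiocytes numbered 805 in all. Cells carry the name of the type whose markers they express, and may only resemble it. The 10 hepatocyte markers summed to between 26450 and 67710 CPM (UMIs of a gene scaled to a common total) in CWHM-12 hepatocytes and between 36000 and 50770 CPM in DMSO hepatocytes. The 10 cholangiocyte markers summed to at least 11070 CPM in cholangiocytes of every library, against 487.7 to 503 CPM in CWHM-12 hepatocytes and 291 to 548 CPM in DMSO hepatocytes. In cholangiocytes the hepatocyte markers summed to 7831 to 8825 CPM under CWHM-12 and 9056 to 11340 CPM under DMSO. In Kupffer cells they summed to 477.1 to 2697 CPM. The source of hepatocyte marker RNA in cholangiocytes was not tested. No pair of libraries shared more than 5 barcodes. DMSO 2 stood apart: 78.25% of its hepatocytes belonged to 1 cluster, number 11, which held between 3.78% and 22.05% of the hepatocytes of the other 5 libraries. Results that rest on DMSO 2 are given with and without it, except correlations over hepatocyte profiles, which are given only with it.

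Of the 2 uptake carriers, Slc10a1 stood at 106, 453 and 321 CPM in the hepatocytes of CWHM-12 1 to 3, against 190.2, 466 and 205 CPM in those of DMSO 1 to 3. CWHM-12 1 was the lowest library and DMSO 2 the highest, and the groups overlapped. The CPM here are summed over all hepatocytes of a library and scaled by TMM, which corrects for composition. Its log2 fold change of CWHM-12 over DMSO was -0.36 (SE 0.68), with -1.49 in batch 2024.6 and 0.89 in batch 2024.12. Slco1b2 stood at 719, 428 and 332 CPM in CWHM-12 hepatocytes and at 944, 2048 and 326 CPM in DMSO hepatocytes. The high value was again that of DMSO 2, the group ranges overlapped, and the log2 fold change was -0.42 (SE 0.498).

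The canalicular exporters showed the same high library. Abcb11 stood at 74.7, 77.3 and 38.5 CPM in CWHM-12 hepatocytes and at 81.3, 221 and 38.2 CPM in DMSO hepatocytes (log2 fold change -0.26, SE 0.55). Abcb4 stood at 205, 121 and 114 CPM in CWHM-12 hepatocytes and at 209.6, 471 and 141 CPM in DMSO hepatocytes (-0.50, SE 0.39). Abcc2 had the widest spread, at 545, 259 and 204 CPM under CWHM-12 and 553, 1878 and 210.1 CPM under DMSO (-0.52, SE 0.56). For each of these genes DMSO 2 exceeded every other library and the groups overlapped.

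Abcg5 and Abcg8 are neighbours that are transcribed away from each other. Their first windows in the RefSeq promoter table (build GRCm38.p6, 250 bases before to 50 bases after each start) overlap by 209 bases, and their starts lie 110 bases apart. The Abcg5 window, chr17:84682962-84683261 on the minus strand, is shown because it also covers the upstream side of Abcg8. Capitals mark the matches found in it, TATAAA at bases 167 to 172 and the reverse complement of CCAAT from the start onward.
Abcg5: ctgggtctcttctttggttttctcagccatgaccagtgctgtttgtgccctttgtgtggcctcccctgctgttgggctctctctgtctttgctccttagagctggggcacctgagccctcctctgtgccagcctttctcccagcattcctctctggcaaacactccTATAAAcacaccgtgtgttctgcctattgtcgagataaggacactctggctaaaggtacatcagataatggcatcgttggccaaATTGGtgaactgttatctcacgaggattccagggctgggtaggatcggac
The same 2 matches fall in the first Abcg8 window, each on the other strand than in the Abcg5 window. There they read TTTATA at bases 220 to 225 and CCAAT at bases 137 to 141, and a further CCAAT lies at bases 76 to 80.

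Abcg5 stood at 81.3, 58.4 and 49.7 CPM in CWHM-12 hepatocytes and at 70.0, 186 and 46.2 CPM in DMSO hepatocytes (log2 fold change -0.23, SE 0.43). Abcg8 stood at 66.9, 48.9 and 57.0 CPM in CWHM-12 hepatocytes and at 76.3, 71.0 and 42.8 CPM in DMSO hepatocytes (0.085, SE 0.29). DMSO 2 was far above the rest for Abcg5 and within the range of the rest for Abcg8. Abcg5 UMIs per Abcg8 UMI numbered 1.22, 1.19 and 0.872 in CWHM-12 1 to 3 and 0.917, 2.62 and 1.08 in DMSO 1 to 3, so the ratio of DMSO 2 was the highest of the 6, and without it the range was 0.872 to 1.22. Abcc3, the basolateral exporter, stood at 53.2, 83.6 and 43.4 CPM in CWHM-12 hepatocytes and at 105, 192 and 30.5 CPM in DMSO hepatocytes, with overlapping groups (-0.27, SE 0.64).

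**Figure D1:**
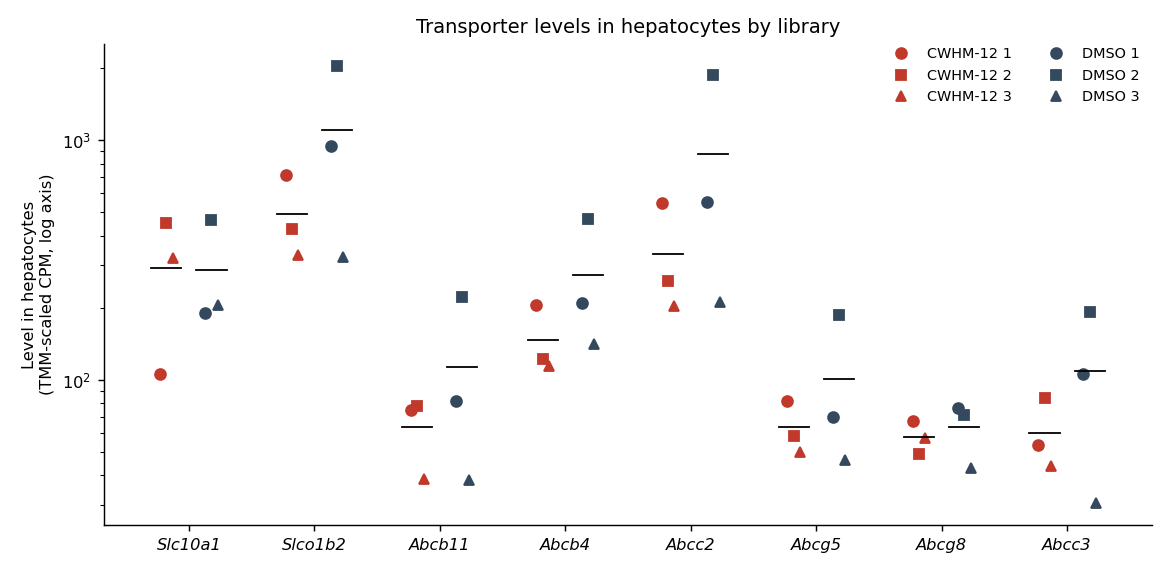
Level of each transporter in hepatocytes (TMM-scaled CPM, log axis) in the 3 CWHM-12 libraries (red) and the 3 DMSO libraries (dark), with the group mean as a bar. The groups overlapped for all 8 genes, and DMSO 2 (dark square) was the highest library for every gene but Abcg8, with Abcc2 at 1878 CPM.

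No transporter passed the test of CWHM-12 against DMSO in hepatocytes (edgeR's quasi-likelihood test with a batch term, adjusted p = 0.999 for each). Of 10339 genes tested, 0 passed at an adjusted p of 0.05 (0%), with 182 at an unadjusted p under 0.05 and 2 passing by DESeq2 and by limma voom. The log2 fold change was negative for 7 of the 8 transporters, with a median of -0.31 against 0.0073 over all genes tested. Within batch 2024.6 the change was negative for all 8 genes, from -0.14 for Abcg8 to -1.49 for Slc10a1. Within batch 2024.12 it was positive for all but Abcb4 (-0.26), from 0.13 for Abcc2 to 0.97 for Abcc3. Hepatocyte cluster 35 held 24 cells in all libraries, with a median of 52144 UMIs. In CWHM-12 2 its 7 cells supplied 50.98% of the UMIs of the 8 genes, with 77.55% for Abcb11 and 71.7% for Abcc3. In CWHM-12 3 its 12 cells supplied 19.35%, and DMSO 3 had 1 such cell, with 0.851%. Within-batch changes without these cells were not computed. Without DMSO 2 the fold changes lay between -0.16 for Abcb4 and 0.21 for Abcg5. Without CWHM-12 1 they lay between -0.26 for Abcb4 and 1.01 for Abcc3. Hepatocytes of CWHM-12 1, DMSO 1 and DMSO 2 had median mitochondrial shares of 4.70%, 10.9% and 8.70%, against 0.722% to 1.13% in the other 3 libraries, all of batch 2024.12, and the part of this in the result was not tested.

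Other genes of bile formation in hepatocytes gave no call between the treatments either. None of 17 tested genes of bile acid synthesis and conjugation passed. The 3 of smallest p were Akr1d1, a steroid reductase of the pathway, Cyp7b1, an oxysterol hydroxylase, and Amacr, a racemase of the side chain. Akr1d1 averaged 71.85 ± 20.01 CPM in CWHM-12 hepatocytes and 40.2 ± 10.6 CPM in DMSO hepatocytes (SD, n = 3 each), Cyp7b1 55.3 ± 10.9 and 78.3 ± 14.2 CPM, and Amacr 207 ± 16.4 and 131 ± 32.5 CPM. None of 16 other hepatobiliary transporters, 17 regulators of bile acid and sterol sensing, 19 genes of the apical scaffold and junctions or 11 genes of cholesterol supply passed. Nr0b2, the repressor SHP that bile acids induce, averaged 53.3 ± 15.6 CPM under CWHM-12 and 42.3 ± 17.8 CPM under DMSO.

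Transporter transcripts were unevenly spread over the hepatocytes. The cells were clustered with the 8 genes and the bile pathway lists left out of the variable genes, and 6 clusters were hepatocytes. Cluster 11, of 1430 cells, was rich in Malat1, a nuclear noncoding RNA, at 14998 CPM against 209 CPM in the other hepatocytes. Its largest ratios to the other hepatocytes were those of the noncoding RNA Snhg11 and the predicted genes Gm47644 and Gm43189. Its cells had a median of 1526 UMIs, against 1582 in the other hepatocytes. Their median mitochondrial share was 7.55%, 7.55% and 16.2% in CWHM-12 1 to 3, against 3.63%, 0.823% and 1.03% in the other hepatocytes, and 11.01%, 8.82% and 5.20% in DMSO 1 to 3, against 10.8%, 8.19% and 0.671%. The share was thus higher in cluster 11 in all 6 libraries, its part in the ratios below was not tested, and what kind of cells cluster 11 holds was not tested. It held 20.4%, 10.2% and 3.78% of the hepatocytes of CWHM-12 1 to 3 and 22.05%, 78.25% and 5.04% of those of DMSO 1 to 3. It supplied 77.9%, 19.3% and 14.4% of the UMIs of the 8 genes in the hepatocytes of CWHM-12 1 to 3, and 70.0%, 89.7% and 20.5% in those of DMSO 1 to 3.

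Abcc2 differed most between these cells. It stood at 2374, 1678 and 1870 CPM in cluster 11 of CWHM-12 1 to 3, against 91.95, 149.9 and 139.8 CPM in their other hepatocytes. In DMSO 1 to 3 it stood at 1795, 3038 and 1813 CPM in cluster 11, against 161, 256 and 140.0 CPM in the other hepatocytes. The ratio had a median of 12.4 over the 6 libraries, from 11.1 to 25.8. Slco1b2 had a median ratio of 8.88, from 5.998 to 11.85, and Abcg5 one of 7.55. Abcb4 followed at 6.30, Abcc3 at 6.18, Abcb11 at 5.16 and Abcg8 at 4.77.

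Slc10a1 was the exception among the 8 when cluster 35 was counted with the other hepatocytes. Its median ratio was 1.03, from 0.65 to 2.92, with 3 of 6 libraries above 1. The other hepatocytes here include the deep cells of cluster 35. These held 63.8%, 24.4% and 42.2% of the Slc10a1 UMIs of CWHM-12 2, CWHM-12 3 and DMSO 2, the libraries with ratios below 1. They held at most 1.19% in the remaining libraries. Of all hepatocyte UMIs, cluster 35 held less, at 37.06%, 12.3% and 22.5% in CWHM-12 2, CWHM-12 3 and DMSO 2. It thus raised the Slc10a1 CPM of the other hepatocytes there. Ratios without cluster 35 were not computed, so the exception is not read as a trait of Slc10a1. Slc10a1 stood at 239.5, 303 and 282 CPM in cluster 11 of CWHM-12 1 to 3, against 82.2, 402 and 288 CPM in the other hepatocytes. In DMSO 1 to 3 it stood at 388, 407 and 218 CPM in cluster 11, against 136, 627 and 201 CPM. Thus, with cluster 35 among the other hepatocytes, 7 of the 8 transporters were higher in cluster 11 in all 6 libraries, as were 1802 of 5881 genes of at least 20 CPM (30.6%). Since clusters were made from the cells compared, these ratios are a description and were not tested. The lowest ratio of Abcb11, 1.23, came from 3 UMIs in cluster 11 of CWHM-12 2.

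**Figure D2:**
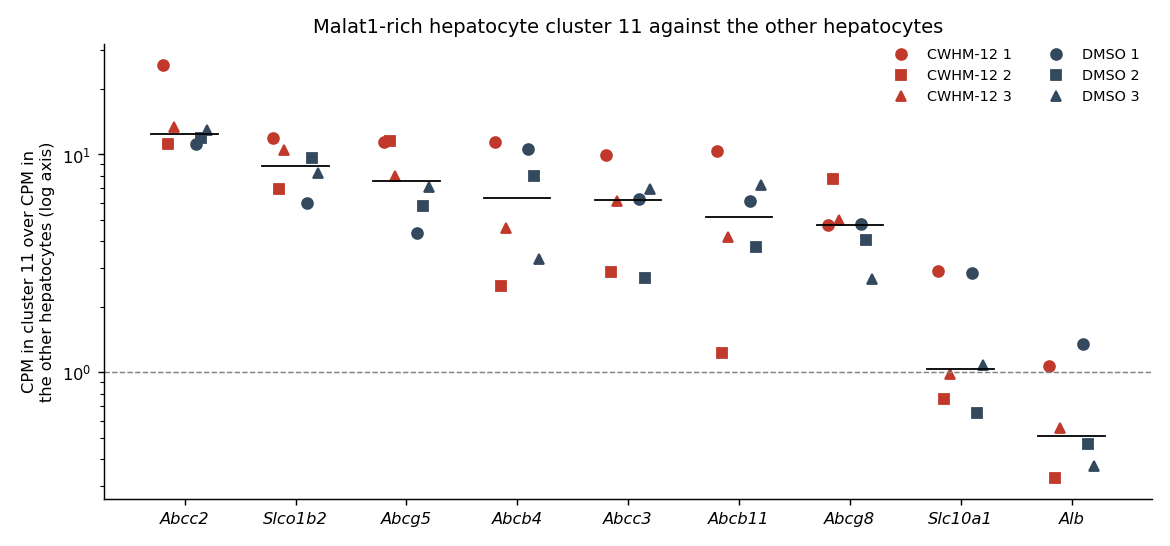
CPM of each transporter, and of Alb for comparison, in the Malat1-rich hepatocyte cluster 11 divided by its CPM in the other hepatocytes of the same library (log axis), with the median over 6 libraries as a bar. Every library lies above 1 for all transporters but Slc10a1, whose median was 1.03, and the median for Alb was 0.513.

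Shares of cells with a UMI were compared after each cell was thinned to 1000 UMIs, pooled over libraries that gave cluster 11 between 3.78% and 78.25% of their hepatocytes. Abcc2 was seen in 85.1% of cluster 11 cells (Wilson 95% interval 83.0% to 86.9%) and in 10.2% of the other hepatocytes (9.21% to 11.3%). Before thinning these shares were 90.5% and 16.75%. Slc10a1 was seen in 24.3% of cluster 11 cells and 15.3% of the other hepatocytes after thinning, pooled over libraries. Its ratios within libraries were above 1 in 3 of 6. Those below 1 came from libraries where the deep cells of cluster 35 held between 24.4% and 63.8% of its UMIs. Thinned shares give each cell the same weight, while the ratios weigh cells by depth. Of cells drawn for this, 163 of cluster 11 and 849 of the other hepatocytes had too few UMIs and were left out. In LSEC, the sinusoidal endothelium, which should lack Abcc2, the share was 0.813% after thinning and 2.85% before it, at a median of 3671 UMIs. Intervals cover counting error only.

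Other groups of bile genes were compared between the same cells. Of 11 other hepatobiliary transporters of at least 20 CPM, 9 were higher in cluster 11 in all 6 libraries and none was lower in all 6, with mean log2 ratios of 4.47 for the anion transporter Abcc6 and 4.32 for the uptake carrier Slco1a4. Of 15 genes of bile acid synthesis, 4 were higher, among them the rate-limiting hydroxylase Cyp7a1 (4.12) and the sterol 27-hydroxylase Cyp27a1 (2.81). In the same list 6 were lower in all 6 libraries, among them Baat, which conjugates bile acids to amino acids (-1.31), and Akr1c6 (-2.38). Over all 5881 genes 30.6% were higher and 26.3% were lower in all 6. The 26.7% of synthesis genes that were higher, and the 33.3% of regulators, thus lie near the share of all genes. Of 9 genes of cholesterol supply 6 were higher and 1 lower, of 12 regulators 4 were higher and 1 lower, and of 12 scaffold and junction genes 2 were higher and 4 lower. The sum of 10 stellate cell markers was between 233 and 1568 CPM in cluster 11 and between 81.4 and 180.5 CPM in the other hepatocytes of CWHM-12 libraries. In DMSO libraries it was between 618 and 3117 CPM in cluster 11 and between 72.5 and 219 CPM in the others. The sum of 10 Kupffer cell markers was 432 to 798 CPM in cluster 11 and 216 to 282 CPM in the other hepatocytes, and that of 10 LSEC markers 502 to 889 CPM and 135 to 646 CPM. The sum of 10 cholangiocyte markers was lower in cluster 11, from 55.0 to 215 CPM against 437 to 579 CPM in the other hepatocytes. That of 10 hepatocyte markers was 20390 to 37390 CPM in cluster 11 and 26650 to 70220 CPM in the others. The part of these in the ratios, that of Abcc3 included, was not tested.

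Fits within these cell sets gave no call for a transporter either. In cluster 11 alone the log2 fold change of CWHM-12 over DMSO was -0.031 for Abcc2 (SE 0.39), 0.028 for Slco1b2 (SE 0.397) and 0.66 for Abcg8 (SE 0.396), and 2 of 5434 genes passed, neither of them a transporter. Without cluster 11 the change was -0.66 for Abcc2 (SE 0.48), -0.41 for Slco1b2 (SE 0.34) and -0.83 for Slc10a1 (SE 1.15), and 0 of 9400 genes passed. Cluster 35, of 24 hepatocytes with a median of 52144 UMIs, held 37.06% of the hepatocyte UMIs of CWHM-12 2, 12.3% of those of CWHM-12 3 and 22.5% of those of DMSO 2. Without it the changes were -0.87 for Abcb11 (SE 0.45), -0.79 for Abcc3 (SE 0.46) and -0.54 for Slc10a1 (SE 0.475), and none passed. Cluster 4 was the commonest in CWHM-12 1 and DMSO 1, cluster 8 in CWHM-12 2 and DMSO 3, cluster 10 in CWHM-12 3 and cluster 11 in DMSO 2, so the groups hold different mixtures of hepatocyte clusters.

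**Figure D3:**
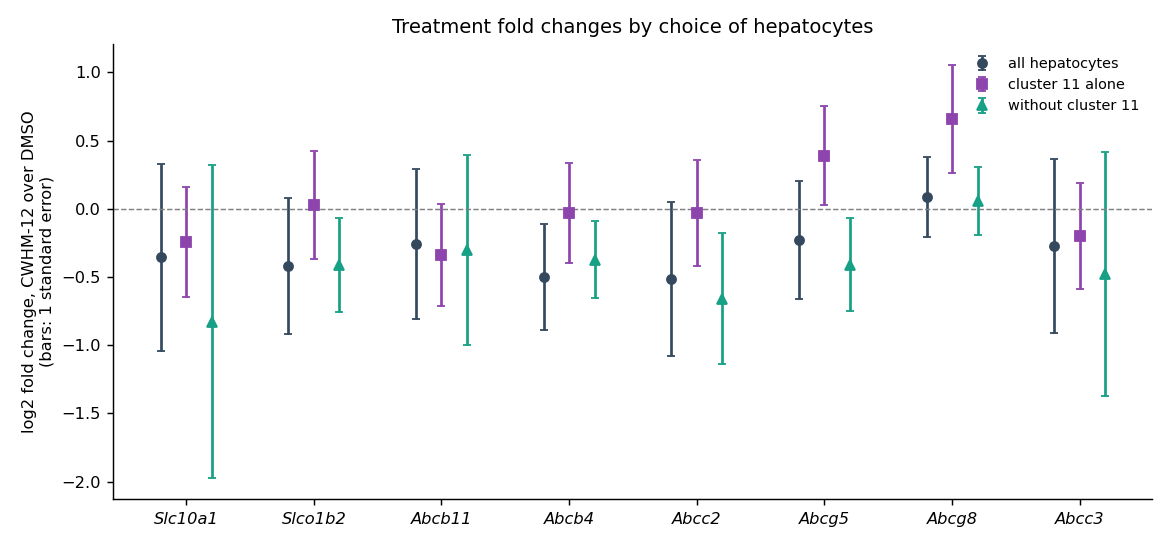
Log2 fold change of CWHM-12 over DMSO for each transporter, with bars of 1 standard error, in all hepatocytes, in cluster 11 alone and in hepatocytes without cluster 11. No value passed the test, and for Abcc2 the estimates were -0.52, -0.031 and -0.66.

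Blood crosses the liver lobule from portal vein to central vein, and hepatocytes differ in their tasks along this path. Hepatocytes were scored by 14 periportal and 14 pericentral landmark genes, none of them a transporter described here, and the outer tertiles of each library were compared. Of 7848 genes tested, 1194 differed between the zones (15.2%), with 8.69% higher and 6.52% lower in periportal cells. Of the 8 transporters, 1 was higher and 2 were lower. Of 8548 hepatocytes, 1675 lay within 0.05 of a bound between tertiles.

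Slco1b2, the sodium-independent uptake carrier, was the most strongly zoned. It stood at 429, 237 and 149 CPM in periportal cells of CWHM-12 1 to 3, against 1050, 869 and 514 CPM in pericentral cells, and at 765, 971 and 160.5 CPM in periportal cells of DMSO 1 to 3, against 1106, 3707 and 515 CPM in pericentral cells. The periportal value was the lower one in 6 of 6 libraries. The log2 fold change of periportal over pericentral was -1.50 (SE 0.17, edgeR adjusted p = 3.2e-07), and -1.31 without cluster 11 (adjusted p = 6.0e-06). It passed under all 17 alternatives, between -1.70 and -1.10.

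Slc10a1, the sodium-dependent carrier, went the other way. It stood at 103, 686 and 358 CPM in periportal cells of CWHM-12 1 to 3, against 93.3, 265 and 273 CPM in pericentral cells, and at 246, 833 and 234 CPM in periportal cells of DMSO 1 to 3, against 146, 335 and 190.2 CPM in pericentral cells. Periportal cells were higher in 6 of 6 libraries, with the widest gaps in CWHM-12 2 and DMSO 2. The log2 fold change was 0.66 (SE 0.15, adjusted p = 0.0022). Without cluster 35, whose 24 cells were mostly periportal, it was 0.31 (SE 0.11, adjusted p = 0.048), and under the stricter cell filter 0.41 (adjusted p = 0.075).

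Abcb4, the phospholipid flippase, was lower in periportal than in pericentral cells in 6 of 6 libraries, at a mean of 189.8 ± 119.8 CPM against 250.5 ± 190.2 CPM (SD, n = 6 each). Its log2 fold change was -0.36 (SE 0.12, adjusted p = 0.042), and -0.14 without cluster 11 (adjusted p = 0.64). The call held under 8 of 17 alternatives. It was lost without any one of CWHM-12 1, CWHM-12 3, DMSO 2 and DMSO 3, where the change lay between -0.39 and -0.30, with DESeq2 (-0.35), without the filter on low counts (-0.34), when cells were split at the median score (-0.26) and with landmarks scored as detected or not (-0.14). Abcb11, the bile acid pump, averaged 103 ± 65.1 CPM in periportal cells and 78.3 ± 80.3 CPM in pericentral cells, and did not pass (0.40, SE 0.18, adjusted p = 0.16). Abcb11 stayed without a call under 16 of 17 alternatives, and passed when landmarks were scored as detected or not (0.67, adjusted p = 0.0037). Without cluster 35 its change was 0.24 (SE 0.14, adjusted p = 0.31). Abcc2 (-0.19, SE 0.14), Abcg5 (0.15, SE 0.14), Abcg8 (-0.10, SE 0.17) and Abcc3 (0.18, SE 0.17) did not pass, and each was higher in periportal cells in 3 or 4 of 6 libraries.

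**Figure D4:**
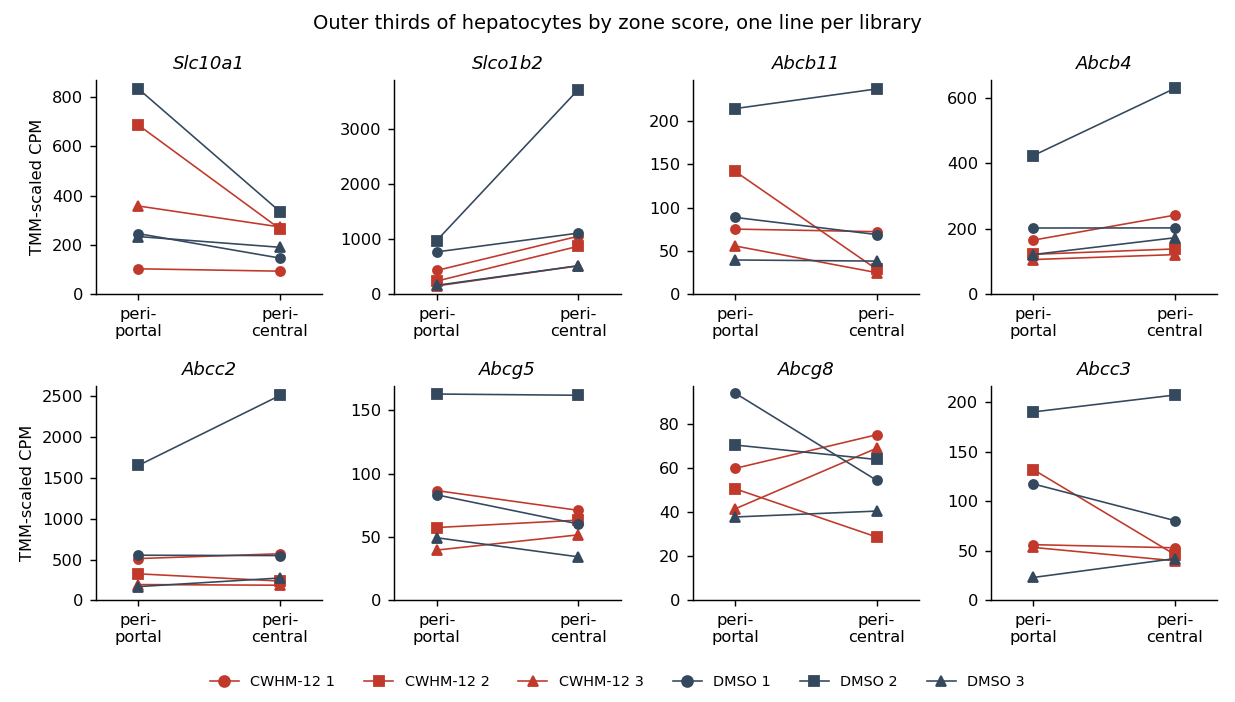
TMM-scaled CPM of each transporter in the periportal and the pericentral tertile of hepatocytes, with a line for each library (CWHM-12 red, DMSO dark). Slco1b2 was lower and Slc10a1 higher in periportal cells in all 6 libraries, with log2 fold changes of -1.50 and 0.66.

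Among the other genes of bile formation, 6 of 15 tested genes of bile acid synthesis and conjugation were lower and 2 were higher in periportal cells. Cyp7a1 averaged 36.0 ± 21.9 CPM in periportal cells and 303 ± 325 CPM in pericentral cells (log2 fold change -2.87, SE 0.23), and Cyp27a1 fell by 0.78 on the log2 scale. Slc27a5, the ligase that activates recycled bile acids, was higher by 0.78, and Cyp2c70, which makes muricholic acids in mice, by 0.59. Of 14 other hepatobiliary transporters 2 were higher, the sodium-dependent carrier Slc10a2 (1.77, SE 0.25) and the water channel Aqp1 (0.51, SE 0.17), and 3 were lower, among them the cation carrier Slc47a1 (-0.78) and the anion carrier Slco1a1 (-0.54). Nr1i3, the receptor CAR, was lower (-2.14) and Lpin1 higher (0.63), of 13 regulators. Cldn2, a pore-forming claudin, was lower (-2.53) and Ceacam1 higher (1.01), of 13 scaffold and junction genes. Of all genes tested 15.2% differed between the zones, 8.69% higher and 6.52% lower in periportal cells. The counts of regulators and of scaffold and junction genes lie near that share. Of 11 genes of cholesterol supply, 1 was lower, the synthase Hmgcs1 (-0.73), and 2 were higher, among them the HDL receptor Scarb1 (0.51). The call for Aqp1 held under 3 of 17 alternatives and was lost without any one library but DMSO 2. That for Scarb1 held under 13 of 17 and was lost without CWHM-12 3 (0.48) or DMSO 1 (0.40). Without cluster 11 the calls for Slc47a1 (-0.77) and Slco1a1 (-0.38) were lost, and that for Slco1a1 was also lost without CWHM-12 1 (-0.44).

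The effect of CWHM-12 within each zone was not detectable for any of the 8 transporters. In periportal cells 0 of 7906 genes passed (0%; 161 at an unadjusted p under 0.05, 2 by DESeq2), and in pericentral cells 0 of 7999 (0%; 116 at an unadjusted p under 0.05). Transporter fold changes ran from -0.59 for Slc10a1 to 0.13 for Abcc3 in periportal cells, and from -0.90 for Abcc2 to 0.41 for Abcg8 in pericentral cells. The difference between the 2 effects, periportal minus pericentral, was tested with an interaction term, and 0 of 7848 genes passed (0%; 223 at an unadjusted p under 0.05). Abcg8 had the lowest p of the 8 (difference -0.71, SE 0.33, unadjusted p = 0.044, adjusted p = 0.9999). Abcb11 differed by 0.66 (SE 0.35) and Abcc2 by 0.51 (SE 0.29). Without cluster 11 the difference was -1.01 for Abcg5 (SE 0.42) and -0.68 for Slco1b2 (SE 0.25), and 0 of 6938 genes passed.

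In cholangiocytes 7 of the 8 transporters were lower than in hepatocytes and Abcc3 was higher. Of 9164 genes tested, 65.6% differed between these classes, 34.3% higher and 31.3% lower in cholangiocytes. Slc10a1 averaged 4.34 ± 3.54 CPM in cholangiocytes and 344 ± 174 CPM in hepatocytes (SD, n = 6 libraries each; log2 fold change -6.44, SE 0.38, edgeR adjusted p = 1.3e-09). Abcb11 averaged 1.79 ± 2.50 CPM in cholangiocytes and 106 ± 81.6 CPM in hepatocytes (-5.66, SE 0.397). The 7 fold changes lay between -6.66 for Abcg5 and -5.50 for Abcb4, and each gene was lower in cholangiocytes in 6 of 6 libraries.

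The low values in cholangiocytes were near those of cells that do not make bile. After thinning to 1000 UMIs, Slco1b2 was seen in 0.761% of cholangiocytes (Wilson 95% interval 0.349% to 1.65%), 1.17% of LSEC and 32% of hepatocytes, so its cholangiocyte share is read as background. Abcb11 was seen in 0 of 788 cholangiocytes, after thinning, which allows a share of up to 0.381% at that depth, and in 1.24% of them before it, from 11 UMIs in all. Without thinning, 7.45% of cholangiocytes, 4.825% of LSEC and 39.75% of hepatocytes held a Slco1b2 UMI, at median depths of 6468, 3671 and 1558 UMIs. For each 1000 UMIs of Alb there were 1.76 UMIs of Slco1b2 in cholangiocytes, where Alb itself reached 7566 CPM, against 33.6 in LSEC, 34.3 in Kupffer cells and 32.7 in hepatocytes.

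Abcc3 stood at 132, 139 and 196 CPM in the cholangiocytes of CWHM-12 1 to 3 and at 154, 165 and 158 CPM in those of DMSO 1 to 3, before TMM scaling. The 6 libraries lay close together and the treatment groups overlapped. In the hepatocytes of the same libraries Abcc3 ranged more widely, from 30.02 to 202 CPM. The log2 fold change of cholangiocytes over hepatocytes was 0.72 (SE 0.296, adjusted p = 0.044), with cholangiocytes higher in 5 of 6 libraries. Without cluster 11 it was 1.35 (SE 0.28, adjusted p = 6.6e-04). The call held under 6 of 12 alternatives. It was lost with DESeq2 (0.68, adjusted p = 0.059), with its size factors (0.69, adjusted p = 0.055), and without any one of CWHM-12 1 (0.62), CWHM-12 2 (0.78), CWHM-12 3 (0.49) or DMSO 3 (0.37).

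Genes around the transporters were also compared between the 2 classes. Of all genes tested, 34.3% were higher and 31.3% lower in cholangiocytes, and a count near these shares is not a trait of its list. Of 16 other hepatobiliary transporters tested, 4 were higher in cholangiocytes and 9 were lower. The chloride channel Cftr was higher by 7.66 on the log2 scale (SE 0.51) and the drug exporter Abcb1a by 5.11 (SE 0.24), while the uptake carrier Slco1a4 was lower (-6.53, SE 0.48). Of 16 genes of bile acid synthesis, 15 were lower, Cyp7a1 among them (-7.63) and Baat (-6.84). Nr1h4, the bile acid receptor FXR, was lower (-3.70). Of 19 scaffold and junction genes 10 were higher and 6 lower, with the membrane linker Ezr at 6.04 and the PDZ scaffold Pdzk1 at -6.88. Of 15 regulators 5 were higher and 8 lower, and of 11 genes of cholesterol supply 2 were higher and 6 lower.

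CWHM-12 gave no call for a transporter in cholangiocytes. Only Slco1b2, Abcc2 and Abcc3 had counts enough to be tested, and 0 of 9004 genes passed (0%; 215 at an unadjusted p under 0.05, 0 by DESeq2 and by limma voom). Abcc3 averaged 159 ± 38.9 CPM under CWHM-12 and 163 ± 8.56 CPM under DMSO (SD, n = 3 each; log2 fold change -0.081, SE 0.21, adjusted p = 0.999). The changes of Slco1b2 (-0.030) and Abcc2 (0.67) rest on 78 and 60 UMIs in all. Of 11 other hepatobiliary transporters tested none passed, and the 3 of lowest p were the water channel Aqp1 (1.70), the cholesterol exporter Abca1 (-0.57) and the flippase Atp8b1 (-0.48). Aqp1 was also among the top genes of LSEC clusters 2 and 7. In cholangiocytes the 10 LSEC markers summed to 87.3 to 549 CPM under CWHM-12 and 79.3 to 156 CPM under DMSO. The part of LSEC RNA in the value of Aqp1 was not tested. Slc10a2, the carrier by which cholangiocytes take bile acids from bile, is added after its values were seen, and averaged 40.3 ± 13.1 CPM under CWHM-12 and 39.6 ± 24.5 CPM under DMSO.

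Abcc3 was the only one of the 8 with a higher CPM in a nonparenchymal class than in hepatocytes in all 6 libraries. In Kupffer cells, the macrophages of the sinusoids, it stood at 336, 343 and 429 CPM in CWHM-12 1 to 3 and at 359.9, 445 and 348 CPM in DMSO 1 to 3. These 6 values did not overlap with the 6 of cholangiocytes, and those of cholangiocytes overlapped with those of hepatocytes. In LSEC Abcc3 lay between 10.98 and 15.6 CPM, and in stellate cells, the vitamin A-storing pericytes, between 4.65 and 17.3 CPM. After thinning, an Abcc3 UMI was seen in 27.97% of Kupffer cells (Wilson 95% interval 26.5% to 29.5%), 15.7% of cholangiocytes (13.4% to 18.4%), 5.63% of hepatocytes (4.89% to 6.48%) and 1.24% of LSEC (0.943% to 1.64%). For each 1000 UMIs of Alb, Kupffer cells held 702 of Abcc3 and hepatocytes 3.22. In mesothelial cells Abcc3 ranged from 28.2 to 123 CPM under CWHM-12 and from 9.74 to 54.0 CPM under DMSO, with up to 13 UMIs in 1 cell. CWHM-12 and DMSO did not differ detectably in Kupffer cells in a fit added after this level was seen, with Abcc3 at 371 ± 60.5 and 386 ± 57.0 CPM (SD, n = 3 each; log2 fold change -0.049, SE 0.20) and 0 of 11290 genes passing (0%; 222 at an unadjusted p under 0.05, 4 by DESeq2).

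**Figure D5:**
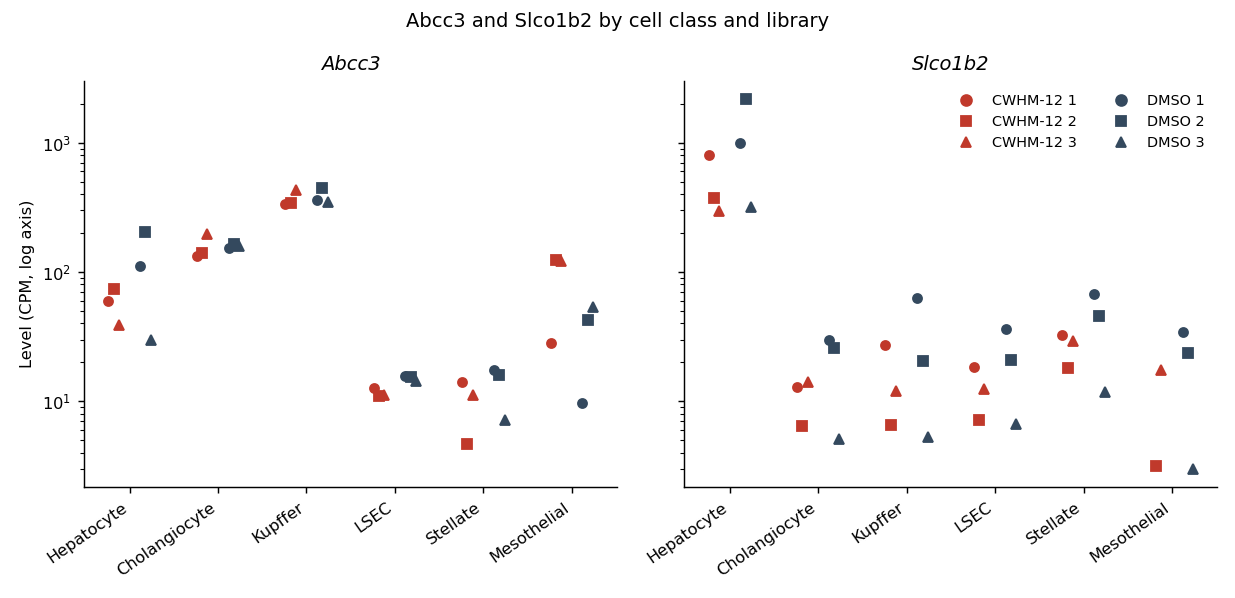
CPM of Abcc3 and Slco1b2 (log axis) in 6 cell classes, with a point for each library (CWHM-12 red and left, DMSO dark and right) and libraries without a UMI left out. Abcc3 was highest in Kupffer cells, between 336 and 445 CPM, while Slco1b2 was highest in hepatocytes in every library.

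Smaller departures from the hepatocyte pattern appeared for 2 other genes. Abcb4 stood between 11.8 and 19.4 CPM in Kupffer cells and between 0.206 and 4.45 CPM in LSEC, and for each 1000 UMIs of Alb there were 27.2 of Abcb4 in Kupffer cells, 5.46 in LSEC and 9.35 in hepatocytes. Abcb11 stood at 11.9, 14.3 and 14.5 CPM in stellate cells of CWHM-12 1 to 3 and at 7.51, 11.9 and 8.53 CPM in those of DMSO 1 to 3, against 0.413 to 4.80 CPM in LSEC. Its UMIs in stellate cells came from many cells, with at most 2 in 1 cell. For each 1000 UMIs of Alb there were 14.8 of Abcb11 in stellate cells and 3.48 in hepatocytes. These ratios were not tested.

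Over 18 hepatocyte profiles (3 zone tertiles of 6 libraries, which share libraries), most of the 8 genes varied together. Cluster 11 made up 82.05%, 78.98% and 73.72% of the tertiles of DMSO 2, against 2.43% to 27.2% in the other libraries. Cluster 35 put 6, 10 and 3 cells into the periportal tertiles of CWHM-12 2, CWHM-12 3 and DMSO 2. The correlations were not computed without DMSO 2, and the part of either cluster in them was not tested. Pearson's r of log2 CPM was 0.974 between Abcb4 and Abcc2, 0.893 between Abcb11 and Abcc2 and 0.849 between Slco1b2 and Abcc2. Slc10a1 correlated with none of the others above 0.431, its value with Abcc3. Abcg5 and Abcg8, which act as a pair, reached 0.583. With Malat1, r was 0.897 for Abcb4, 0.896 for Abcc2 and -0.149 for Slc10a1. Of 5990 genes, those most like Abcc2 were Clk1 (0.982), Ddx17 and Luc7l2, and those most like Slc10a1 were Apoh and Elovl5 (0.932 each). Tfr2 and Fn1 were the most like Abcb11 (0.958 each), Glt1d1 the most like Slco1b2 (0.951), and F5 the most like Abcc3 (0.96).

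Motifs were counted in the promoter windows of the 7 genes that the RefSeq table holds. The window of Abcc2, chr19:43782058-43782357 on the plus strand, is shown because this gene differed most between cluster 11 and the other hepatocytes. Capitals mark AAGGTCA at bases 201 to 207 and the reverse complement of CCAAT at bases 49 to 53 and 223 to 227.
Abcc2: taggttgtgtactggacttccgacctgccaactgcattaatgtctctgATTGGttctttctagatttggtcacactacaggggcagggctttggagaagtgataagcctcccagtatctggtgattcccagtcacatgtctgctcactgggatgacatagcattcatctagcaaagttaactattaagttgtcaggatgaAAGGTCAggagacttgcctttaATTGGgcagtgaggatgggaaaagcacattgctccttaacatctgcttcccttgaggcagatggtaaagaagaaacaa
Of all 32851 windows of this length, AAGGTCA occurs on either strand in 4.72%, CCAAT in 37.4% and TATAAA in 13.6%. The nuclear receptor repeat IR1 (AGGTCA, any base, TGACCT) and the HNF1 palindrome (GTTAAT, any base, ATTAAC) were each found in 0.00913% of windows, and the HNF4 motif CAAAGTCCA in 0.475%. Only Abcc2 held AAGGTCA, the windows of Slc10a1, Slco1b2, Abcg5 and Abcg8 held TATAAA, and that of Abcb11 held none of the 6 motifs. A match describes these letters and shows no binding.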

How the data were processed

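Each deposited matrix gives whole-number UMI counts by gene and barcode, per the file headers. The labels' protocols name the BD Rhapsody platform and whole transcriptome kit, and the submitters' processing notes name build GRCm39. No source used here states the aligner or annotation. A cell was kept with 300 or more genes, 500 or more UMIs and no more than 30% of them mitochondrial (38697 cells). Scrublet's automatic threshold marked 0.0372% to 1.09% of a library, so a common score of 0.25 removed 715 doublets. Cells were clustered in scanpy 1.11.5 (2000 variable genes, 40 components, Leiden resolution 1.5, leidenalg 0.10.2), without integration, giving 36 clusters. Of these, 27 were named as 17 classes and 9 stayed unnamed. Shares of cells used at most 4000 cells of a class.

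Counts summed per library and class were tested with edgeR 4.0.16 (TMM, its filter on low counts, Benjamini-Hochberg over all genes, threshold 0.05) in R 4.3.3, with a batch term for treatment and the library as a block for zones and classes. Alternatives used DESeq2 1.42.0 and limma 3.58.1 voom with sample weights, other scalings, filters and zone bounds, and each library left out. Standard errors were worked back from the F statistic. Within-batch values used a prior count of 2. The fit was checked on simulated data that held no batch difference. The hepatocyte treatment fit called 6.25% of genes with a simulated log2 change of 1 and 61.5% of those with 2. The zone fit called 95.6% and 100%. A treatment change of 1 on the log2 scale would thus mostly be missed. All 8 transporters are named, and of each pathway list those passing, up to 8, or, where none passed, the 3 lowest in p among genes of 20 CPM or more. Not all are described, and some items are not reported here. The members and lists were chosen with earlier results of these data known. The Kupffer fit and the sets without clusters 11 and 35 were added after the data were seen.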

Additional observations from a re-analysis of the deposited data

How the results depend on the processing

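In the main fits the fewest cells behind a sum were 265 for hepatocytes and 88 for an outer tertile, both in CWHM-12 2. For cholangiocytes they were 49, in CWHM-12 1. The fit of cluster 11 alone rested on 27 cells and 36344 UMIs in CWHM-12 2 and on 72 cells in CWHM-12 3. The part of depth in the lack of calls was not tested. Of 144 treatment values for transporters in hepatocytes under alternatives, 125 kept their direction and none passed. Counts of genes passing between CWHM-12 and DMSO became 2 with DESeq2, 2 with limma voom, 6 without the filter on low counts and 2 in cluster 11 alone for hepatocytes, where leaving out a library gave 0 to 2. For cholangiocytes they became 26 without the filter and 1 with doublets kept, and leaving out a library gave 0 to 12 (12 without DMSO 2, 5 without DMSO 3). They became 2 with DESeq2 and 8 without the filter in periportal cells, where leaving out a library gave 0 to 3, and 3 without the filter in pericentral cells, where it gave 0 to 1. The difference between zones gave 3 without the filter. In Kupffer cells DESeq2 gave 4 and no filter 26. Between zones, 683 genes passed among cells with at least 2000 UMIs. The fit with the replicate number as a block gave 0 genes in hepatocytes and 0 in cholangiocytes. Same-numbered libraries had correlations of 0.107, -0.090 and 0.48 in hepatocytes, so the numbers are not taken as pairs, and not every library correlated best with its own number. Signs changed for values that had not passed. In hepatocytes Slc10a1 became 0.027 without the batch term, Abcg8 -0.12 without it and -0.085 with the replicate block, Slco1b2 0.028 in cluster 11 alone, and Abcg5 0.091 with limma voom and 0.39 in cluster 11 alone. Leaving out a library gave -1.60 to 0.91 for Slc10a1, -1.03 to 0.22 for Slco1b2, -0.98 to 0.55 for Abcb11, -1.13 to 0.13 for Abcc2, -0.61 to 0.21 for Abcg5, -0.11 to 0.32 for Abcg8 and -1.44 to 1.01 for Abcc3. In cholangiocytes Slco1b2 became 0.027 with limma voom, 0.084 with the looser and 0.14 with the stricter cell filter, and Abcc2 -0.11 without the batch term and -0.065 with the replicate block. Leaving out a library gave -1.17 to 1.03, -0.18 to 1.895 for Abcc2 and -0.33 to 0.11 for Abcc3. Between zones Abcc2 became 0.086 with landmarks detected or not and 0.054 without cluster 11, Abcg5 -0.096 with at least 2000 UMIs, and Abcc3 -0.18 with the stricter cell filter and -0.087 without cluster 35, and leaving out a library gave -0.29 to 0.11 for Abcg8. Between cholangiocytes and hepatocytes, without cluster 11, Dpp4 became 0.011 and Npc1 0.80. Abcc3 in Kupffer cells became 3.5e-04 with limma voom, and leaving out a library gave -0.28 to 0.18. The causes were not tested.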
